A study of Astyanax mexicanus with 6 samples.

Results

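Collagens, laminins, integrins and the glycoproteins that join them were examined in 2 cell lines of the fish Astyanax mexicanus, 1 line from surface fish liver (SFL) and 1 from Pachón cavefish liver (CFL). The genes were taken by a rule on gene names, as the collagen, laminin, fibronectin, fibrillin, fibulin, SPARC, tenascin C, thrombospondin, nidogen, perlecan, agrin and integrin genes of the expression table. This gave 105 of 27420 genes, with 37 collagen chains, 12 laminin chains, 24 other matrix proteins, 30 integrin subunits and 2 genes whose symbols match but which encode neither matrix nor integrin subunits (itgb1bp1, itgbl1). Of the 27420 genes, 8654 carry no name, so matrix genes among them were not taken. The 3 SFL libraries came from passage 45 (replicate 1) and passage 46 (replicates 2 and 3), and the 3 CFL libraries from passage 50 (replicate 1) and passage 51 (replicates 2 and 3). The donor fish of both lines were about 150 days old. The Pachón fish, but not the surface fish, were starved for a week before dissection. The medium held fetal bovine and trout serum, insulin and epidermal growth factor, and in early passages each line also received extract of embryos of its own form. The study describes both lines as clonal but does not state whether the 3 libraries of a line came from 1 clone. They were taken as repeated cultures of the line, so the p-values measure only the spread between such cultures. The paper describes CFL as hyperdiploid (with more chromosomes than normal) and SFL as having the normal chromosome number. It detected B chromosomes in CFL, proposes a male origin for that line, and could not test the sex of SFL. Line, fish form, donor starvation, embryo extract, chromosome number, passage number and clone cannot be told apart.

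The extracellular matrix outside a cell is built from collagens, which assemble from 3 chains into fibrils or networks, and from laminins, which assemble from an alpha, a beta and a gamma chain and form the sheet of the basement membrane together with collagen IV, nidogen, perlecan and agrin. Fibronectin and thrombospondins are adhesive glycoproteins that connect this material with cells. Integrins are receptors made of an alpha and a beta subunit that bind matrix proteins outside and the actin skeleton inside through talin, kindlin and integrin-linked kinase. In liver, stellate cells are known as the main makers of fibrillar collagen after injury, and hepatocytes secrete a soluble fibronectin into plasma.

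Values are TPM (an abundance divided by transcript length and scaled so that every library has the same total), and the depth behind them is unknown. A level of 1 TPM or more was reached by 13254 to 13721 genes per library. Of the 105 genes, 34 had at least 1 TPM in all 6 libraries (11587 of the 27420 genes of the whole table). Another 4 reached it in all SFL but not all CFL libraries (1147 in the table), and 10 in all CFL but not all SFL libraries (1193). In 12 genes this level was reached in some libraries but in neither line throughout (1624), and 45 stayed below it in every library (11869). COL8A1, col10a1a, col10a1b and sparcl1 were listed at 0 throughout. The SFL libraries were uneven for these genes, with most of them lowest in SFL replicate 1 and highest in SFL replicate 3. Results that rest on 1 library are given with and without it for some genes, not for all. The lines were compared with limma on log2(TPM + 1) over all 18489 genes that reached 0.2 TPM in any library, which left 73 of the 105. A gene was called at an adjusted p (Benjamini-Hochberg) under 0.05 and a fold change of at least 2, and each log2 fold change is SFL over CFL on this scale, which understates changes at low TPM.

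SFL was higher in 8 of the 73 (10.96%, against 11.7% over all 18489) and CFL was higher in 10 (13.7%, against 8.88%). Together 24.7% were called, against 20.6% of all tested genes, and the share called higher in SFL was near the background. SFL had more of collagen chains col1a1a and col27a1b, laminin chain lama4, agrn, thbs1a and integrin subunits itga4, itga5 and itga9. CFL had more of collagen chains col18a1a, col5a2a, col8a2 and COL14A1, nid1b, hspg2, fn1a and integrin subunits itgb8, itga6b and itga8. The SFL libraries lay wholly above the CFL libraries in 19 of the 73 genes (29.8% of all tested genes did so) and wholly below them in another 19 (23.1%). The 73 genes had a median log2 fold change of -0.15, against 0.07 for all tested genes, and a median size of change of 0.86, against 0.48. A further 7 of the 73 passed the adjusted p with less than a 2-fold change on the log2(TPM + 1) scale (2608 of all 18489 did so). Of the 7, itgb1b.1 and fn1b were higher in SFL, and nid2a, col19a1, lamb2l, thbs3b and col4a5 in CFL. In mean TPM all but itgb1b.1 differed more than 2-fold. With 0.1 added to TPM in place of 1, nid2a, col19a1, lamb2l, thbs3b and col4a5 were called. Without SFL replicate 3 the count of genes higher in CFL was 16 in place of 10 (over all genes 1744 of 18231, in place of 1642 of 18489). In the later passages, with 2 libraries a line, it was 4 (over all genes 1138 of 18093). In the later passages the calls for lama4, col8a2, COL14A1, itga8, hspg2, fn1a and col5a2a were lost.

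**Figure D1:**
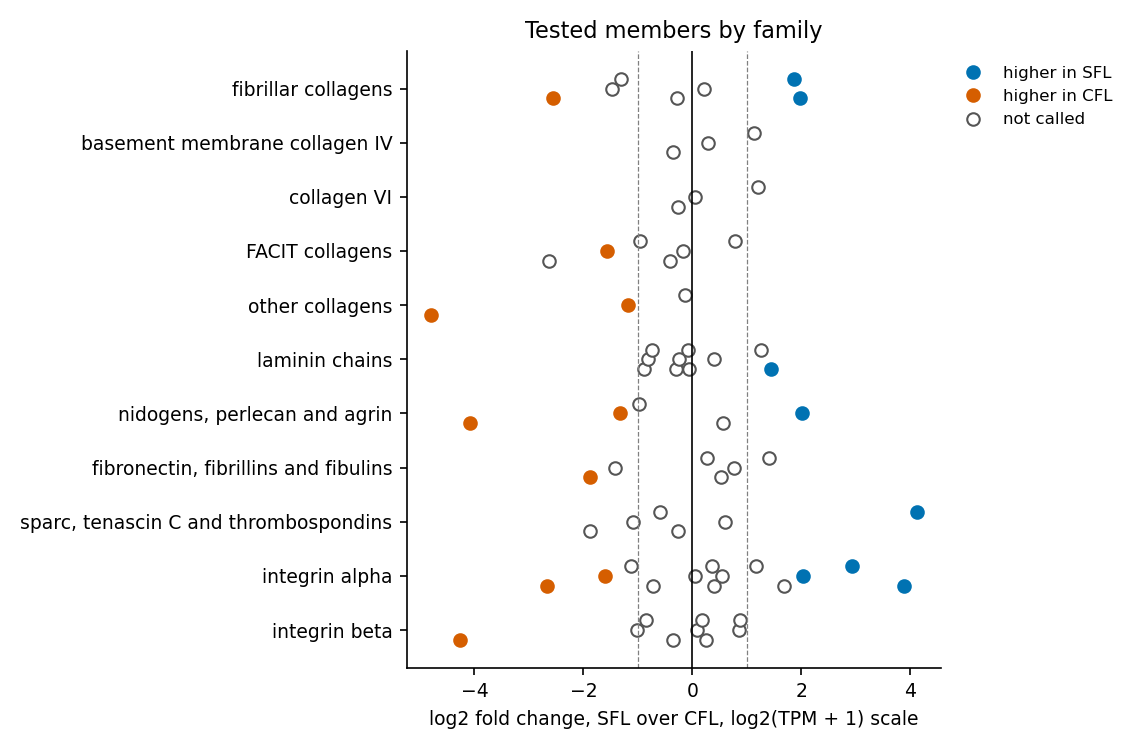
Log2 fold change (SFL over CFL, log2(TPM + 1) scale) of each tested collagen, matrix and integrin gene, in a row for its family. Blue points are the 8 genes higher in SFL, orange points the 10 higher in CFL and open points genes that were not called, with dashed lines at a 2-fold change. Calls of both directions stand in the fibrillar collagens, the integrin alpha subunits and the nidogen, perlecan and agrin row.

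Fibrillar collagens form the tensile fibres of the interstitial matrix, and of the chains of collagen I only the alpha1 chain was called. col1a1a (ENSAMXG00000015724), the alpha1 chain, was at 194, 260.1 and 386 TPM in the SFL libraries and at 102.2, 70.5 and 43.2 TPM in the CFL libraries. Every SFL library was above every CFL library, with a log2 fold change by limma of 1.97 (± 0.38 SE, adjusted p = 0.00827). Its partner col1a2 (ENSAMXG00000021065) was at 106, 488 and 882 TPM in SFL and at 1077, 1132 and 578 TPM in CFL. These ranges overlapped, and the difference in col1a2 did not exceed the spread among SFL libraries (limma log2 fold change -1.31 ± 0.75 SE, adjusted p = 0.214). The ratio of col1a1a to col1a2 was 1.83, 0.533 and 0.438 in SFL libraries and 0.0949, 0.0623 and 0.0746 in CFL libraries. In CFL the alpha2 transcript was thus more than 10 times as abundant per length as the alpha1 transcript in all 3 libraries, although the collagen I molecule usually holds more alpha1 than alpha2 chains. The second alpha1 gene, col1a1b, reached at most 0.7 TPM in SFL and 1.1 TPM in CFL.

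Collagen V co-assembles with collagen I and sets the diameter of its fibrils. col5a2a (ENSAMXG00000031202) had 39.1, 13.1 and 50.5 TPM in SFL, against 222, 151 and 177 TPM in CFL. The CFL libraries were all higher, with a log2 fold change by limma of -2.56 (± 0.48 SE, adjusted p = 0.00751). col5a1, whose chain pairs with it, had 5.28, 8.46 and 21.7 TPM in SFL and 44.7, 30.6 and 19.3 TPM in CFL. The lines overlapped in col5a1, as SFL replicate 3 passed CFL replicate 3 (limma log2 fold change -1.48 ± 0.52 SE, adjusted p = 0.0647), and without SFL replicate 3 the gene was called (log2 fold change -1.9985, limma adjusted p = 0.0113). It was also called with all libraries under median-ratio or quantile scaling (log2 fold change -1.58 in each, limma adjusted p = 0.045 and 0.0452). col27a1b (ENSAMXG00000037890), a fibrillar chain known mainly from cartilage, was low in both lines but higher in SFL, at 1.98, 3.36 and 4.02 TPM against 0.17, 0.11 and 0.05 TPM in CFL (limma log2 fold change 1.86 ± 0.21 SE, adjusted p = 0.00108).

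Of the collagens that decorate fibrils (the FACIT group), col12a1a had the highest mean in both lines, although col12a1b was above it in SFL replicate 1. It had 10.97, 37.8 and 215 TPM in SFL and 410.0, 355 and 164 TPM in CFL. SFL replicate 3 lay above CFL replicate 3, so the lines overlapped and the gene was not called (limma log2 fold change -2.64 ± 0.99 SE, adjusted p = 0.0809), while without SFL replicate 3 it was (log2 fold change -3.75, limma adjusted p = 0.00668). Its paralog col12a1b was even across the libraries, at 26.98, 28.9 and 41.2 TPM in SFL and 40.1, 35.2 and 55.8 TPM in CFL (limma log2 fold change -0.42 ± 0.25 SE, adjusted p = 0.226). COL14A1 (ENSAMXG00000012535) was at 0, 0.04 and 0.05 TPM in SFL, against 3.81, 2.31 and 0.76 TPM in CFL, and was higher in CFL (limma log2 fold change -1.56 ± 0.34 SE, adjusted p = 0.0138). That call was lost without CFL replicate 2 (limma adjusted p = 0.0549).

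Collagen VI makes beaded filaments near the cell surface from 3 different chains. col6a3 was its main transcript, with 30.8, 119 and 127 TPM in SFL and 98.3, 85.8 and 50.9 TPM in CFL, and was not called (limma log2 fold change 0.04 ± 0.57 SE, adjusted p = 0.96). The sign of this value turned with median-ratio or quantile scaling of the libraries. col6a2 was at 1.28 to 3.96 TPM in SFL and 1.61 to 4.37 TPM in CFL. col6a1 had 1.24, 1.54 and 5.39 TPM in SFL and 0.67, 0.36 and 0.31 TPM in CFL, with no overlap but without passing the test (limma log2 fold change 1.20 ± 0.39 SE, adjusted p = 0.0539). Without SFL replicate 1, col6a1 was called (log2 fold change 1.49, limma adjusted p = 0.0376). With all libraries it was called when 0.1 or 0.5 was added to TPM in place of 1 (limma adjusted p = 0.0268 and 0.0395). A filter of at least 1 TPM in 3 libraries also gave the call (limma adjusted p = 0.0485).

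Collagen XVIII is a basement membrane collagen with heparan sulfate chains, known as the source of endostatin in mammals. Its gene col18a1a (ENSAMXG00000003496) showed the largest log2 fold change among the tested collagens, laminins and integrins. It was at 3.79, 13.2 and 30.2 TPM in SFL, against 395, 322 and 351 TPM in CFL. The highest SFL library was more than 10 times below the lowest CFL library (limma log2 fold change -4.79 ± 0.62 SE, adjusted p = 0.00184). With a library left out in turn, the value of col18a1a stayed between -5.43 and -4.08. col8a2 (ENSAMXG00000002681), a short-chain network collagen, was at 0.29, 0.43 and 1.01 TPM in SFL and 2.41, 3.38 and 1.89 TPM in CFL (limma log2 fold change -1.18 ± 0.23 SE, adjusted p = 0.00966). The col10a1 genes, whose product is known from growing cartilage, were listed at 0 in both lines.

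**Figure D2:**
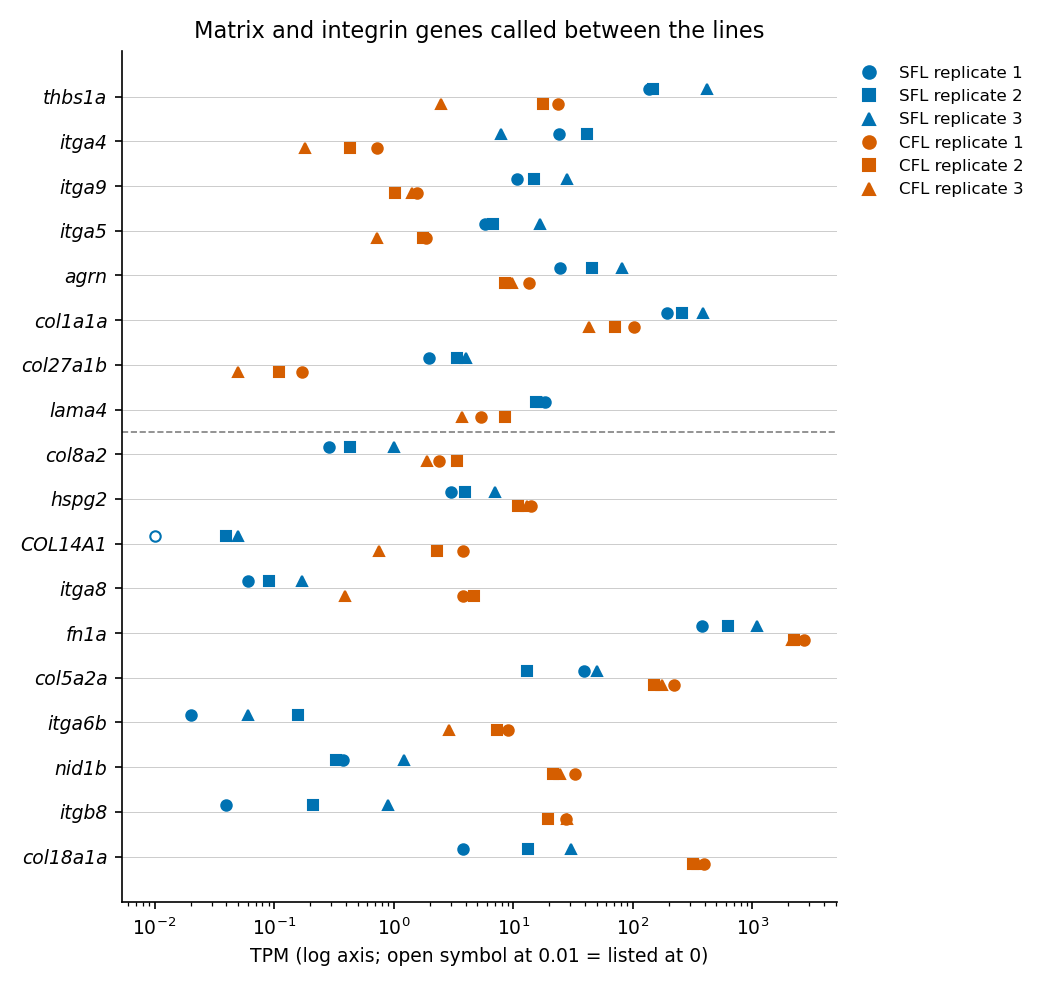
TPM (log axis) of the 18 called genes in each library, with SFL in blue above CFL in orange, a symbol shape for each replicate, and the genes higher in SFL above the dashed line. The SFL and CFL points of a gene do not overlap in any row, and the gaps of itgb8, itga6b and nid1b stand out among the genes higher in CFL.

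Collagen IV is the network collagen of every basement membrane, and its alpha1 and alpha2 chains assemble together. col4a1 had 30.3, 21.4 and 17.8 TPM in SFL and 9.70, 16.3 and 5.90 TPM in CFL, so all SFL libraries were higher (limma log2 fold change 1.12 ± 0.37 SE, adjusted p = 0.0543). It was called without CFL replicate 2 (log2 fold change 1.46, limma adjusted p = 0.0336). With all libraries it was called under a filter of at least 1 TPM in 3 libraries or with replicate number as a block (limma adjusted p = 0.0478 and 0.0481). col4a2 had 14.4, 13.2 and 7.86 TPM in SFL and 10.9, 14.5 and 4.81 TPM in CFL, a difference within the spread (limma log2 fold change 0.28 ± 0.41 SE, adjusted p = 0.61). The ratio of col4a1 to col4a2 was 2.10, 1.62 and 2.26 in SFL and 0.889, 1.12 and 1.23 in CFL. The 2 genes lie side by side in the AstMex3_surface assembly, as do col6a2 and col6a1, lamb2 and lamb2l, and lamb1a and lamb4. There, 92 of the 105 symbols were matched. The minor chains col4a3 and col4a5 stayed below 1 TPM in all libraries.

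Laminin levels were carried by lamb1a (ENSAMXG00000000835), the beta1 chain, at 63.6, 88.8 and 155 TPM in SFL and 128, 115 and 99.5 TPM in CFL. The lines overlapped and the gene was not called (limma log2 fold change -0.24 ± 0.33 SE, adjusted p = 0.588). The gamma1 chain lamc1, which joins the same trimers, was far lower, at 2.73, 3.71 and 5.44 TPM in SFL and 5.20, 5.70 and 4.10 TPM in CFL (limma log2 fold change -0.30 ± 0.25 SE, adjusted p = 0.381). The ratio of lamb1a to lamc1 lay between 23.3 and 28.5 in SFL and between 20.1 and 24.6 in CFL, while the summed level of laminin chains ranged from 90.6 to 196 TPM in SFL and from 119 to 157 TPM in CFL.

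Of the laminin alpha chains only lama4 was called. This gene (ENSAMXG00000014261), whose chain is known from vessel walls and mesenchyme, was even within SFL at 18.5, 15.7 and 17.3 TPM and was at 5.41, 8.58 and 3.76 TPM in CFL. It was higher in all SFL libraries (limma log2 fold change 1.45 ± 0.28 SE, adjusted p = 0.00837). lama1, the alpha chain of embryonic and epithelial basement membranes, had 0.37, 6.6 and 13.2 TPM in SFL and 14.2, 8.24 and 5.67 TPM in CFL, spread widely within SFL, and was not called (limma log2 fold change -0.89 ± 0.83 SE, adjusted p = 0.435). The ratio of lama4 to lama1 was 50.1, 2.37 and 1.31 in SFL and 0.382, 1.04 and 0.663 in CFL. lama3 and lama5 stayed below 1 TPM in every library. lamb2 had 0.46, 1.20 and 2.28 TPM in SFL, against 2.19, 2.92 and 3.00 TPM in CFL (limma log2 fold change -0.75 ± 0.30 SE, adjusted p = 0.0978). Without SFL replicate 3, lamb2 was called (log2 fold change -1.04, limma adjusted p = 0.0181).

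**Figure D3:**
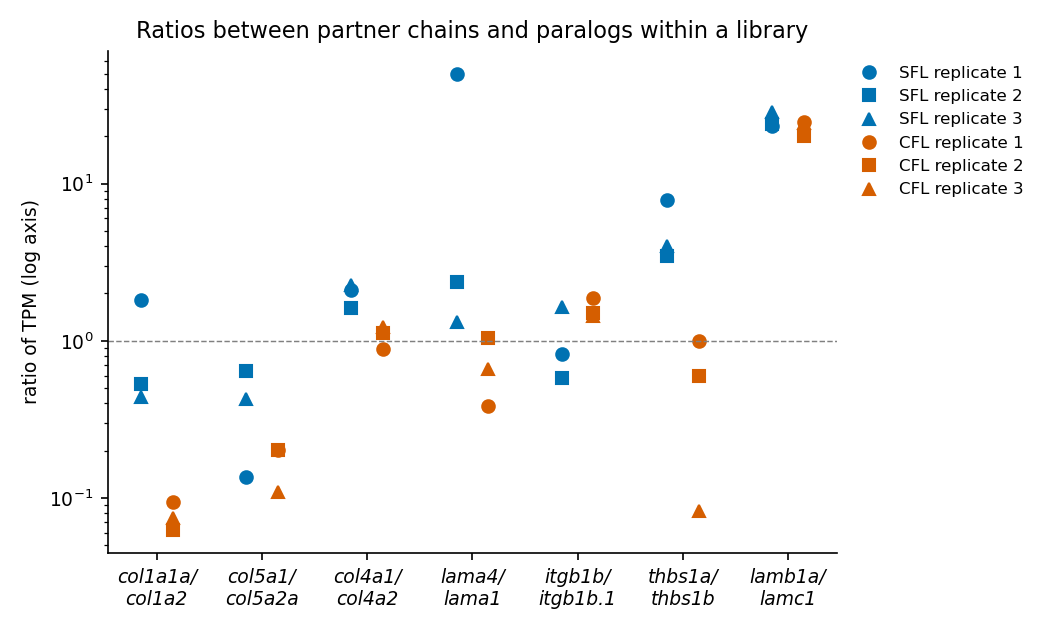
Ratio of TPM between partner chains or paralogs within each library (log axis), for 7 pairs chosen after their values were seen, with SFL (blue) left of CFL (orange). The ratios do not overlap between the lines for col1a1a to col1a2, col4a1 to col4a2, lama4 to lama1 and thbs1a to thbs1b, and they overlap for the other 3 pairs. With 3 libraries a line the smallest exact permutation p is 0.1.

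The proteins that link the laminin and collagen IV networks moved in opposite directions. nid1b (ENSAMXG00000021348), a nidogen that bridges the networks, had 0.38, 0.33 and 1.22 TPM in SFL, against 33.2, 21.4 and 24.5 TPM in CFL. It was nearly absent from SFL and higher in every CFL library (limma log2 fold change -4.08 ± 0.28 SE, adjusted p = 0.000135). hspg2 (ENSAMXG00000043042), which encodes the heparan sulfate proteoglycan perlecan, had 3.01, 3.94 and 7.02 TPM in SFL and 14.1, 10.9 and 13.1 TPM in CFL (limma log2 fold change -1.33 ± 0.29 SE, adjusted p = 0.0131, and 0.0544 without CFL replicate 1). agrn (ENSAMXG00000012767) encodes agrin, a heparan sulfate proteoglycan best known from the nerve-muscle junction. It had 24.7, 45.8 and 80.7 TPM in SFL, against 13.5, 8.49 and 9.86 TPM in CFL, and was higher in all SFL libraries (limma log2 fold change 2.01 ± 0.42 SE, adjusted p = 0.0117, and 0.0521 without CFL replicate 2). The second nidogen genes were low, nid2a at 0.14 to 0.63 TPM in SFL and 1.06 to 2.12 TPM in CFL and nid2b at 0 to 2.11 TPM in SFL and 0.01 to 0.1 TPM in CFL. nid2a was called higher in CFL without SFL replicate 3 and without CFL replicate 3 (log2 fold change -1.13 and -1.14, limma adjusted p = 0.00877 and 0.013). It was also called with all libraries under median-ratio or quantile scaling (log2 fold change -1.02 and -1.07, limma adjusted p = 0.00959 and 0.00658). The same held with 0.1 or 0.5 added to TPM in place of 1.

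Fibronectin was the most abundant transcript of the group. fn1a (ENSAMXG00000005593) had 376, 622 and 1099 TPM in SFL, against 2729, 2221 and 2149 TPM in CFL. The gene ranked 366, 251 and 140 among all genes of the SFL libraries and 71, 79 and 82 among those of the CFL libraries. It was higher in every CFL library (limma log2 fold change -1.89 ± 0.38 SE, adjusted p = 0.0102), and with the later passages alone its adjusted p was 0.0561. fn1b stayed below 1 TPM in all libraries. The fibrillins, which build the microfibrils of elastic tissue, had FBN1 at 0.75, 1.74 and 6.26 TPM in SFL and 11.4, 5.61 and 7.16 TPM in CFL, and fbn2b at 4.49, 32.4 and 55.2 TPM in SFL and 8.39, 6.18 and 7.15 TPM in CFL. Neither was called with all libraries (limma adjusted p = 0.0798 and 0.211). FBN1 was called without SFL replicate 3 (log2 fold change -1.9985, limma adjusted p = 0.00771), and fbn2b without SFL replicate 1 (log2 fold change 2.40, limma adjusted p = 0.00296). fbln5, a fibulin of elastic fibres, was at 23.98, 12.4 and 7.34 TPM in SFL and 4.97, 9.33 and 8.21 TPM in CFL and was not called.

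Thrombospondins are secreted glycoproteins that modulate adhesion and can release latent TGF-beta. thbs1a (ENSAMXG00000012179) had 136, 147 and 416 TPM in SFL, against 23.8, 17.7 and 2.47 TPM in CFL. It had the largest log2 fold change towards SFL in the group, at 4.12 (± 0.80 SE by limma, adjusted p = 0.00889), although its level varied within each line. Its paralog thbs1b had 17.3, 42.3 and 104 TPM in SFL and 23.97, 29.8 and 30.0 TPM in CFL and was not called (limma log2 fold change 0.60 ± 0.58 SE, adjusted p = 0.448). thbs2b pointed the other way, at 0.61, 5.75 and 6.81 TPM in SFL and 29.2, 14.2 and 8.31 TPM in CFL, without overlap and without passing the test (limma log2 fold change -1.89 ± 0.69 SE, adjusted p = 0.0755). sparc, which encodes a collagen-binding glycoprotein, had 85.9, 375 and 726 TPM in SFL and 577, 726 and 552 TPM in CFL. SFL replicate 3 was level with CFL replicate 2, and sparc was not called (limma log2 fold change -1.10 ± 0.72 SE, adjusted p = 0.269). tnc stayed at or below 0.05 TPM in SFL and 0.32 TPM in CFL.

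Integrin beta1 is the common partner of most alpha subunits, and its genes held the highest integrin level in 5 of the 6 libraries (itga6a did in CFL replicate 3). itgb1b (ENSAMXG00000035720) had 94.1, 87.1 and 215 TPM in SFL and 127, 125 and 94.5 TPM in CFL and was not called (limma log2 fold change 0.08 ± 0.36 SE, adjusted p = 0.887), its sign turning with median-ratio or quantile scaling. A second gene of that name, itgb1b.1 (ENSAMXG00000012259) had 115, 149.9 and 131 TPM in SFL and 67.9, 83.4 and 66.1 TPM in CFL. The adjusted p of itgb1b.1 passed but its fold change was under 2 (limma log2 fold change 0.85 ± 0.18 SE, adjusted p = 0.0119). RSEM assigns reads that match several genes by estimation, so the split between such copies is uncertain.

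The alpha subunits that were higher in SFL are known in mammals as partners of beta1. itga5 (ENSAMXG00000016623), the alpha chain of the main fibronectin receptor, had 5.79, 6.79 and 16.8 TPM in SFL, against 1.88, 1.77 and 0.72 TPM in CFL (limma log2 fold change 2.03 ± 0.41 SE, adjusted p = 0.0103). itga4 (ENSAMXG00000014947), whose receptor binds fibronectin and the vascular adhesion molecule VCAM1, had 24.3, 41.3 and 7.84 TPM in SFL, against 0.72, 0.43 and 0.18 TPM in CFL (limma log2 fold change 3.89 ± 0.55 SE, adjusted p = 0.00253). itga9 (ENSAMXG00000013573), a relative of itga4 that binds tenascin and other ligands, had 10.8, 14.8 and 28.1 TPM in SFL, against 1.56, 1.02 and 1.42 TPM in CFL (limma log2 fold change 2.92 ± 0.34 SE, adjusted p = 0.00124). All 3 were higher in each SFL library than in any CFL library, and each call held in all 15 other fits. fn1a, whose product itga5 and itga4 bind, differed in the opposite direction.

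Subunits that were higher in CFL were nearly absent from SFL. itgb8 (ENSAMXG00000004704), which pairs with alpha v and is known in mammals for the activation of TGF-beta, had 0.04, 0.21 and 0.89 TPM in SFL, against 27.5, 19.5 and 28.3 TPM in CFL. It had the lowest adjusted p of the tested members (limma log2 fold change -4.27 ± 0.28 SE, adjusted p = 0.000123). Its partner itgav had 16.9, 40.9 and 141 TPM in SFL and 48.7, 45.1 and 40.3 TPM in CFL, even in CFL and spread in SFL (limma log2 fold change 0.05 ± 0.68 SE, adjusted p = 0.958). itga6b (ENSAMXG00000000536), a laminin receptor subunit, had 0.02, 0.16 and 0.06 TPM in SFL, against 9.01, 7.31 and 2.93 TPM in CFL (limma log2 fold change -2.68 ± 0.35 SE, adjusted p = 0.00182). The paralog itga6a was higher than itga6b in every library, at 18.8, 62.8 and 95.9 TPM in SFL and 92.7, 89.0 and 153 TPM in CFL, and was not called (limma log2 fold change -1.13 ± 0.58 SE, adjusted p = 0.169). itga8 (ENSAMXG00000016039), whose receptor binds nephronectin in mammals, had 0.06, 0.09 and 0.17 TPM in SFL, against 3.78, 4.68 and 0.39 TPM in CFL. The call for itga8 was the least firm (limma log2 fold change -1.60 ± 0.50 SE, adjusted p = 0.048), and it held in 5 of the 15 other fits, being lost on leaving out any library but CFL replicate 3 (limma adjusted p = 0.0824 to 0.148).

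**Figure D4:**
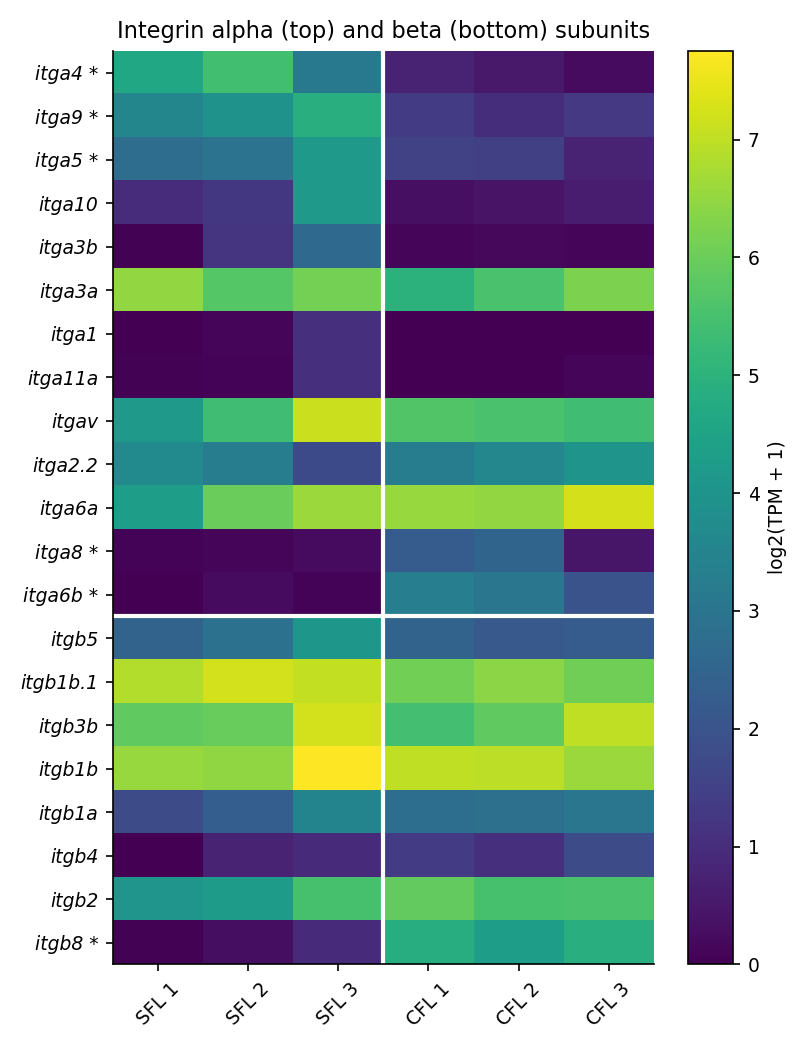
Heat map of log2(TPM + 1) for the 21 integrin subunits that reached 1 TPM in some library, alpha subunits above and beta subunits below the white line, with the SFL libraries left and the CFL libraries right. Asterisks mark the 6 called subunits, and itgb8, itga6b and itga8 are dark in SFL while itga4, itga5 and itga9 are dark in CFL.

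No other integrin subunit at 1 TPM or more throughout a line was called. itga3a, a laminin receptor subunit, had 90.0, 51.5 and 69.0 TPM in SFL and 30.8, 45.4 and 73.5 TPM in CFL. itgb3b was at 57.2, 61.3 and 148 TPM in SFL and 42.0, 57.0 and 129 TPM in CFL, highest in replicate 3 of both lines. itgb2, known in mammals as a leukocyte subunit, had 15.7, 18.4 and 43.9 TPM in SFL and 57.9, 43.8 and 45.2 TPM in CFL (limma log2 fold change -1.02 ± 0.38 SE, adjusted p = 0.0788) and was called without SFL replicate 3 (log2 fold change -1.46, limma adjusted p = 0.00313). The leukocyte alpha subunits itgam and itgae.2 stayed at or below 0.09 TPM in both lines. itga2.2 (2.35 to 12.2 TPM in SFL and 8.73 to 15.04 TPM in CFL), itgb5 (4.59 to 16.2 TPM in SFL and 3.50 to 4.56 TPM in CFL) and itgb1a (2.46 to 10.4 TPM in SFL and 5.94 to 7.24 TPM in CFL) were not called. itga10, a collagen receptor subunit, stood out in SFL replicate 3, at 0.96, 1.38 and 16.9 TPM in SFL and 0.25, 0.34 and 0.53 TPM in CFL, and was not called (limma adjusted p = 0.146). itgb4, the hemidesmosome subunit of epithelia, had 0, 0.68 and 0.90 TPM in SFL and 1.58, 1.12 and 2.48 TPM in CFL, and was called in CFL only without SFL replicate 3 (limma adjusted p = 0.042, against 0.0607 with all libraries).

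The level of the group varied more between SFL libraries than between CFL libraries. All 105 genes together summed to 1722, 2992 and 5471 TPM in SFL and to 6603, 6005 and 5074 TPM in CFL, which is 0.172%, 0.299% and 0.547% of all TPM in SFL and 0.66%, 0.60% and 0.507% in CFL. SFL replicate 1 was low and SFL replicate 3 reached the CFL range. Of the 46 genes of the group that averaged at least 1 TPM in SFL, SFL replicate 3 was the highest SFL library in 36 (78.3%) and SFL replicate 1 the lowest in 35 (76.1%), against 42.5% and 42.4% of the 13798 genes of the whole table at that level. SFL replicate 3 was at least 2-fold above SFL replicate 1 in 31 of the 46 (67.4%), against 11.4% of those 13798 genes, on the TPM + 1 scale. SFL replicate 3 was at least 2-fold above SFL replicate 2, of the same passage, in 19 of the 46 (41.3%, against 7.78%). The cause of this unevenness was not tested. Genes lowest in SFL replicate 3 included col4a1, col4a2, fbln5, itga2.2, itga4 and itgb1bp1. In CFL, replicate 1 was the highest library in 27 of 49 such genes (55.1%, against 37.6% of 13454 genes of the table) and replicate 3 the lowest in 26 (53.1%, against 44.3%).

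**Figure D5:**
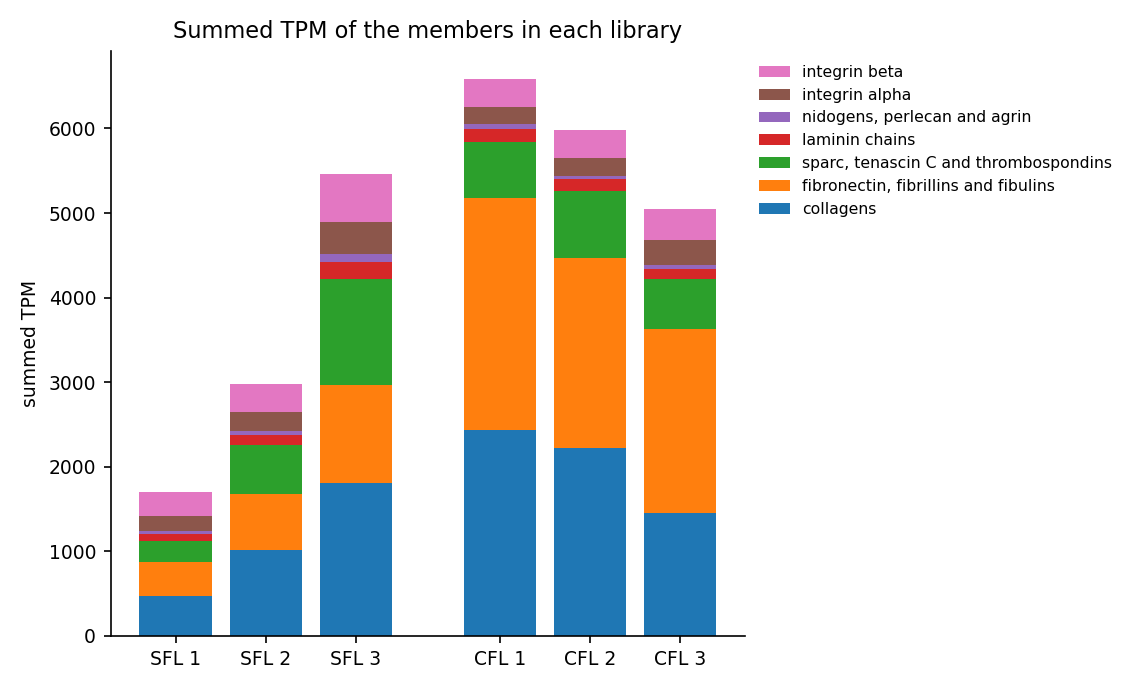
Summed TPM of collagens, other matrix families and integrin subunits in each library, SFL left and CFL right. The totals are 1722, 2992 and 5471 TPM in SFL and 6603, 6005 and 5074 TPM in CFL (the 2 genes that are neither matrix nor integrin subunits, included in these totals, are not drawn). SFL replicate 3 has the highest column of its line.

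Some marker genes of liver cell types also differed between the lines. The hepatocyte list (17 genes) summed to 69.3 to 124 TPM in SFL and 0.74 to 1.27 TPM in CFL, with ttr at 0 and hnf4a and fabp10a at most at 0.2 TPM in every library, so these defining hepatocyte markers were at or near 0 in both lines. Of the 9 tested hepatocyte genes, 6 were higher in SFL (66.7%, against 11.7% in all), namely rbp4, tfa, fgb, c9, apoa2 and apoa1a. The calls for c9 and apoa1a each held in 9 of the 15 other fits. rbp4, at 48.6, 110.4 and 68.9 TPM in SFL and 0.26, 0.38 and 0.20 TPM in CFL, held most of the SFL sum. The biliary and simple epithelial list (15 genes) summed to 6426 to 8678 TPM in SFL and 1480 to 1771 TPM in CFL, mostly 1 krt8 gene, krt18b and krt18a.1, with epcam at or below 0.02 TPM. SFL was higher in 5 of the 9 tested genes of this list (55.6%, against 11.7% in all) and CFL in 3 (33.3%, against 8.88%). Those 3 were sox9a (0.81, 0.63 and 0.75 TPM in SFL and 40.2, 49.4 and 27.6 TPM in CFL), hnf1bb (2.29, 12.3 and 7.18 TPM in SFL and 163, 205 and 209.7 TPM in CFL) and spp1 (0.40, 1.02 and 1.36 TPM in SFL and 6.14, 24.3 and 29.3 TPM in CFL). The stellate and fibroblast list (18 genes) summed to 2663, 1311 and 4623 TPM in SFL and 1338, 1147 and 987 TPM in CFL, of which tagln held most. Of its 11 tested genes, 1 was higher in SFL (9.09%, against 11.7% in all), lrata, at 4.54, 1.17 and 0.86 TPM in SFL and 0 in CFL (limma adjusted p = 0.026). Another 3 were higher in CFL (27.3%, against 8.88% in all), zeb1b and the receptor genes, with pdgfra at 1.47, 0.43 and 1.19 TPM in SFL and 18.9, 23.8 and 21.7 TPM in CFL (limma adjusted p = 0.000168) and pdgfrb at 0.26, 0.75 and 1.41 TPM in SFL and 13.3, 12.1 and 8.95 TPM in CFL (limma adjusted p = 0.000682). acta2 was at 31.1, 73.9 and 150.2 TPM in SFL and 53.4, 30.1 and 5.47 TPM in CFL and was not called (limma adjusted p = 0.177). The endothelial list (14 genes) summed to 89.7, 114 and 249 TPM in SFL and 60.7, 68.7 and 80.9 TPM in CFL, with pecam1 at 0 and cdh5 at or below 0.02 TPM, and its kdr was at 4.77, 36.3 and 154 TPM in SFL and 2.79, 2.65 and 3.59 TPM in CFL. The immune list (13 genes) summed to 22.3 to 33.6 TPM in SFL and 43.4 to 114 TPM in CFL, nearly all from 1 MPEG1 gene. No gene was called among the 5 tested of the endothelial list or the 7 tested of the immune list. In bulk RNA, more cells of a type and more RNA per cell cannot be told apart, and the part of these markers in the matrix differences was not tested.

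The enzymes and chaperones that modify and fold collagen were next compared. SFL was higher in 1 of 30 tested genes (3.33%, against 11.7% in all) and CFL in 9 (30%, against 8.88%), out of 38 listed, and the median log2 fold change was -0.52. serpinh1b (ENSAMXG00000031437), which encodes the collagen chaperone Hsp47, had 0.20, 0.71 and 0.72 TPM in SFL, against 13.4, 13.8 and 12.1 TPM in CFL (limma log2 fold change -3.21 ± 0.21 SE, adjusted p = 0.00011). Its paralog serpinh1a was higher in both lines, at 112, 196 and 169 TPM in SFL and 213, 245 and 188 TPM in CFL, and was not called (limma adjusted p = 0.182). p3h1, a collagen prolyl 3-hydroxylase, had 4.45, 15.8 and 13.6 TPM in SFL and 50.02, 55.2 and 39.9 TPM in CFL (limma log2 fold change -2.15 ± 0.43 SE, adjusted p = 0.00998). The collagen galactosyltransferases split, with the gene written COLGALT1 at 16.8, 17.2 and 15.99 TPM in SFL and 6.04, 7.40 and 7.16 TPM in CFL (limma log2 fold change 1.17 ± 0.17 SE, adjusted p = 0.00259), and colgalt2 at 0.07, 0.08 and 0.15 TPM in SFL and 1.24, 3.05 and 4.52 TPM in CFL (limma log2 fold change -1.75 ± 0.32 SE, adjusted p = 0.00673). Another gene, written colgalt1, had 2.99, 6.08 and 8.78 TPM in SFL and 7.16, 6.71 and 7.1 TPM in CFL. It was not called (limma log2 fold change -0.29 ± 0.33 SE, adjusted p = 0.513). p4hb, the disulfide isomerase subunit of prolyl 4-hydroxylase, was the most abundant of the list, at 504, 772 and 515 TPM in SFL and 322, 392 and 378 TPM in CFL, and its change was under 2-fold (limma log2 fold change 0.69 ± 0.22 SE, adjusted p = 0.0476). The other genes higher in CFL were p4ha1a, fkbp10a, fkbp10b, adamts14, loxl2b and tll1. The loxl2b call held in 7 of the 15 other fits and was lost on leaving out any library but CFL replicate 3 (limma adjusted p = 0.0625 to 0.118). For fkbp10a the call was lost without CFL replicate 2 (limma adjusted p = 0.0511).

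Proteins that link integrins to actin were compared next. SFL was higher in 5 of 34 tested genes (14.7%, against 11.7% in all) and CFL in 2 (5.88%, against 8.88%), out of 36 listed, and the median log2 fold change was 0.04. fermt2 (ENSAMXG00000042847), a kindlin that activates integrins, had 80.4, 86.4 and 102.1 TPM in SFL, against 22.8, 29.8 and 26.9 TPM in CFL (limma log2 fold change 1.72 ± 0.18 SE, adjusted p = 0.000766). ilk and tln1, chosen here after their values were seen, were higher in SFL as well (log2 fold change 1.56 and 1.34, limma adjusted p = 0.0008 and 0.00224), as were vclb and ptk2ba. The vclb call held in 8 of the 15 other fits. It was lost without any 1 CFL library (limma adjusted p = 0.0503 to 0.0674). Without SFL replicate 3 it was lost as well, with a log2 fold change of 0.76. Of the genes higher in SFL, the focal adhesion kinase relative ptk2ba was low, at 4.56, 3.35 and 1.31 TPM in SFL and 0.14, 0.14 and 0.41 TPM in CFL (limma log2 fold change 1.64 ± 0.32 SE, adjusted p = 0.00925). The tensin gene TNS1 had 3.43, 1.09 and 0.67 TPM in SFL and 4.63, 5.96 and 10.9 TPM in CFL and was higher in CFL (limma log2 fold change -1.64 ± 0.44 SE, adjusted p = 0.028), as was tln2a. The TNS1 call held in 9 of the 15 other fits and was lost without SFL replicate 2 or 3 or CFL replicate 2 or 3 (limma adjusted p = 0.0603 to 0.0835). flna, an actin crosslinker, was the most abundant of the list at 1188, 1531 and 2174 TPM in SFL and 1107, 1066 and 1243 TPM in CFL (limma log2 fold change 0.48 ± 0.25 SE, adjusted p = 0.176).

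Among other receptors for matrix, SFL was higher in 1 of 10 tested genes (10%, against 11.7% in all) and CFL in 2 (20%, against 8.88%), and the median log2 fold change was -0.09. ddr2a, a receptor kinase for fibrillar collagen, had 77.0, 61.3 and 64.0 TPM in SFL, against 15.5, 20.5 and 14.7 TPM in CFL (limma log2 fold change 1.94 ± 0.19 SE, adjusted p = 0.000638). dag1, whose product dystroglycan binds laminin and perlecan, had 7.57, 6.95 and 25.4 TPM in SFL, against 28.2, 39.5 and 31.7 TPM in CFL (limma log2 fold change -1.48 ± 0.47 SE, adjusted p = 0.0481). The call for dag1 held in 6 of the 15 other fits and was lost on leaving out any library but SFL replicate 3 (limma adjusted p = 0.102 to 0.147). cd151l, named for a tetraspanin that accompanies laminin-binding integrins, had 15.4, 13.9 and 14.5 TPM in SFL and 35.5, 38.7 and 35.2 TPM in CFL (limma log2 fold change -1.27 ± 0.15 SE, adjusted p = 0.0013). bcam, a laminin receptor of the immunoglobulin family and the most abundant of this list, was at 187, 255 and 277 TPM in SFL and 262, 286 and 451 TPM in CFL and was not called (limma adjusted p = 0.226).

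Other matrix proteins included paralogs with opposite expression, the emilin1 genes and the efemp2 genes. emilin1a (ENSAMXG00000009830), for a glycoprotein of elastic fibres, had 46.7, 53.8 and 212 TPM in SFL, against 0.05, 0.10 and 0.05 TPM in CFL (limma log2 fold change 6.27 ± 0.55 SE, adjusted p = 0.000389). emilin1b (ENSAMXG00000032257) had 0.40, 1.60 and 6.96 TPM in SFL, against 128, 113 and 76.6 TPM in CFL (limma log2 fold change -5.09 ± 0.61 SE, adjusted p = 0.00132). frem1b, for a basement membrane protein, had 18.8, 19.03 and 26.7 TPM in SFL, against 0.32, 0.26 and 0.53 TPM in CFL (limma log2 fold change 4.03 ± 0.21 SE, adjusted p = 5.66e-05). efemp2a, a fibulin gene under another name with the highest mean of this list over the 6 libraries, had 234, 375 and 559 TPM in SFL, against 1047, 1589 and 1411 TPM in CFL (limma log2 fold change -1.86 ± 0.34 SE, adjusted p = 0.00709). In SFL itself ecm1b was above efemp2a, at 268, 479 and 1519.9 TPM in SFL and 97.1, 77.2 and 205 TPM in CFL, and was higher in SFL (limma log2 fold change 2.32 ± 0.67 SE, adjusted p = 0.0354), a call held in 10 of the 15 other fits. ccn1 was above efemp2a in SFL replicates 1 and 2, at 932, 399 and 544 TPM in SFL and 239, 261 and 242 TPM in CFL. It was higher in SFL too (limma log2 fold change 1.24 ± 0.31 SE, adjusted p = 0.0213), a call held in 9 of the 15 other fits. npnta, named for nephronectin, the ligand of the itga8 receptor in mammals, and chosen after its values were seen, had 6.76, 13.4 and 20.4 TPM in SFL, against 96.6, 65.0 and 106 TPM in CFL (limma log2 fold change -2.72 ± 0.39 SE, adjusted p = 0.00279). SFL was higher in 6 of the 25 tested genes of this list (24%, against 11.7% in all) and CFL in 5 (20%, against 8.88%), out of 44 listed, and the median log2 fold change was -0.16. Over these lists together, SFL was higher in 13 of 99 tested genes (13.1%, against 11.7% in all) and CFL in 18 (18.2%, against 8.88%). Without CFL replicate 1 or CFL replicate 2 the genes higher in SFL were 8 (1769 and 1716 over all genes, against 2168 with all libraries).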

How the data were processed

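Bulk polyA RNA-seq (75 bp single reads) was done on 3 SFL and 3 CFL libraries. Source labels and the methods name tissue as the RNA source, but titles, design and passage numbers name SFL and CFL cells, so all 6 were taken as cultures of these lines. Per the paper's methods, the authors aligned reads with STAR (2.7.3a in the submitters' processing notes) to a UCSC genome of the species with Ensembl gene models and estimated abundance per gene with RSEM. The values the authors deposited are TPM. The assembly is not given in the sources used here.

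From the TPM, log2(TPM + 1) was tested with limma 3.58.1 (lmFit, eBayes with trend) in R 4.3.3 for all genes reaching 0.2 TPM in any library. P-values were adjusted by Benjamini-Hochberg over all tested genes. The filter and thresholds follow the authors' count-based analysis, and a count test could not be run on TPM. The code was tested on simulated data. Tables were made in Python 3.11.15 with pandas 2.3.3.

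The rule on gene names, which uses no measured value, and the gene lists were set with earlier results of these data known. Named were all called members, the 2 most abundant members of each family, laminin and integrin genes at 1 TPM or more in all libraries of a line, and from each further list the 3 largest calls and the most abundant gene. Further genes were named to complete families. Symbols were matched to RefSeq (AstMex3_surface) for neighbours only. Sequences were not used here. Values of 1 member are not reported here. Alternatives were pseudocounts of 0.1 and 0.5, no filter, at least 1 TPM in 3 libraries, median-ratio and quantile scaling, no trend, the replicate number as a block, later passages alone, each library left out and no fold threshold.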

Additional observations from a re-analysis of the deposited data

How the results depend on the processing

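Of the 18 calls in the collagen, matrix and integrin group, 10 were kept in all 15 other fits, and none turned direction. The count higher in CFL was 10, and became 16 with a pseudocount of 0.1 and 4 with the later passages alone. Over all genes that count was 1642, and 2492 and 1138 under these settings. For the members it ranged from 8 to 16 with each library left out, with 16 without SFL replicate 3 (1744 over all genes). The further lists had 13 genes higher in SFL, and 8 to 14 with each library left out. Counts under the other settings stayed within 1.5 times. Same-numbered libraries were treated as unpaired. Their deviations from the line means had correlations of -0.225, 0.078 and -0.0743, which cannot show whether such libraries were paired. With the replicate block 9 members were higher in SFL and 9 in CFL. Under the block col4a1 was gained (adjusted p = 0.0481) and itga8 lost (0.0503) among members, and TNS1 had 0.0614 and dag1 0.0541 in the further lists. Among named genes that were not called, the sign of the log2 fold change turned for itgav, col6a3 and itgb1b with median-ratio scaling (-0.0522, -0.0644 and -0.0314) and with quantile normalization (-0.0751, -0.10 and -0.0654). With the later passages alone it turned for lamb1a (0.14), col6a2 (0.22) and lama1 (0.40). With each library left out, values ranged from -0.74 to 0.76 for itgav, -0.59 to 0.051 for lamb1a, -0.19 to 0.71 for itgb3b, -0.12 to 0.58 for col4a2, -0.62 to 0.012 for col6a2, -0.31 to 0.70 for col6a3, -1.60 to 0.088 for lama1, -0.84 to 0.016 for itgb1a and -0.34 to 0.31 for itgb1b. The cause was not tested. TPM carries no depth, so no counting error can be given for low values.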
